A study of Bos taurus with 39 samples.

Results

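The genes described here are 7 genes through which macrophages take up, break down, carry and export lipid: APOE, FABP4, GPNMB, LIPA, TREM2, ABCA1 and ABCG1. They were taken by name from a table of 21661 features, in which each had 1 row. The table holds RNA-seq of the somatic cells found in the milk of 39 Holstein cows, with 1 library per cow. Milk was drawn through a plastic cannula and kept on ice, RNA was extracted with Trizol, and libraries were made with the TruSeq RNA kit. By their labels 22 cows are LOW RFI and 17 are HIGH RFI, the extremes of a ranking by feed efficiency. RFI is read here as residual feed intake, the feed eaten beyond what production and body weight predict, so that LOW RFI cows are the more efficient. No treatment, age or lactation stage is given in the labels used here. All levels are RPKM, read counts scaled to gene length and to the mapped reads of each library, and cows are numbered within their group by label order.

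Macrophages engulf dying cells, lipoproteins and fat droplets and send them to the lysosome, where cholesteryl esters and triglycerides are split. The freed cholesterol is stored again as esters or leaves the cell through membrane pumps to apolipoproteins. In human and mouse cells the sterol-sensing nuclear receptors called LXR switch on APOE, ABCA1 and ABCG1 when cholesterol builds up. Milk is rich in fat globules and its cells include macrophages, neutrophils, lymphocytes and shed mammary epithelium.

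Mapped reads per library ran from 41637742 to 204905052 in LOW RFI cows and from 61576736 to 153880796 in HIGH RFI cows, as recovered from the values. A bulk sample of mixed cells cannot tell fewer cells of a type from less RNA per cell. Of 19 macrophage and monocyte markers, 17 had at least 1 RPKM in at least 17 cows, among them CD68, CD14 and TYROBP. These could be tested, and the mean of their log2 values, called the macrophage score, ran from 1.45 to 6.50 over the cows. MARCO and SIGLEC1 were too low to test. The 4 libraries least like the others in rank correlation were cows 11 and 17 of the HIGH RFI group and cows 18 and 20 of the LOW RFI group. In HIGH RFI 17, LOW RFI 18 and LOW RFI 20, 8 milk protein genes took 80.1%, 68.7% and 66.8% of all RPKM, against 4.61% in HIGH RFI 11. Several results are given with and without these 4 libraries, while fold ranges and shares of variance hold all cows. The column names carry a month between September 2019 and June 2020, whose meaning is not stated. The tags of 13 LOW and 4 HIGH RFI cows fall in 2019 and those of 9 LOW and 13 HIGH RFI cows in 2020, so tag and group partly overlap.

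The order of the 7 genes was much the same from cow to cow. APOE was above each of the other members in 39 of 39 cows, and TREM2 was above ABCA1 in 39 of 39. LIPA exceeded GPNMB in 33 cows and GPNMB exceeded TREM2 in 38, while ABCA1 exceeded ABCG1 in 33. FABP4 had no fixed place in this order: LIPA exceeded it in 12 cows and GPNMB exceeded it in 9. Ranked among all features of its own library, APOE stood 3rd in its best cow and 69th at the median. ABCA1 stood 8015th and ABCG1 10880th at the median.

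Each gene also spread widely between cows. The highest cow was 531 times the lowest for APOE, 377 times for FABP4 and 333 times for ABCA1, against 96.2 times for ABCG1. On the log2(RPKM + 1) scale the SD over the 39 cows was 1.91 for APOE and 1.96 for FABP4, and 1.54, 1.44 and 1.42 for LIPA, GPNMB and TREM2. It was 1.24 for ABCA1 and 0.70 for ABCG1, whose values near or under 1 RPKM are compressed by the added 1. Cow 20 of the LOW RFI group was its lowest cow in 6 of the 7 genes and cow 17 of the HIGH RFI group its lowest in all 7, and both libraries are rich in milk protein transcripts.

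APOE encodes the secreted apolipoprotein that carries cholesterol and phospholipid out of macrophages. Its level in LOW RFI cows was lowest at 15.5 RPKM in cow 20, 1127 at the median and highest at 8241 in cow 13. In HIGH RFI cows the lowest value was 20.8 in cow 17, the median 1274 and the highest 6466 in cow 12. The groups overlapped over nearly their whole range, and 12 of 22 LOW RFI cows lay under the HIGH RFI median. The means were 1691 ± 1911 RPKM (SD, n = 22) and 1703 ± 1573 RPKM (SD, n = 17).

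LIPA is lysosomal acid lipase, the enzyme that splits cholesteryl esters and triglycerides in the lysosome. It ran from 4.28 through a median of 213.3 to 578.3 RPKM in LOW RFI cows, and from 5.75 through 281.7 to 580.6 RPKM in HIGH RFI cows. The means were 235.1 ± 158.5 and 311.1 ± 169.4 RPKM (SD, n = 22 and 17). The highest values of the groups were nearly equal, and the lowest were again LOW RFI 20 and HIGH RFI 17. GPNMB, a membrane glycoprotein that lysosome-rich phagocytes make, ran from 4.05 through 160.7 to 487.0 RPKM in LOW RFI cows and from 6.09 through 244.7 to 443.0 RPKM in HIGH RFI cows. Its means were 180.3 ± 121.7 and 225.7 ± 124.2 RPKM (SD, n = 22 and 17). LIPA and GPNMB shared both their highest cows, LOW RFI 17 and HIGH RFI 2, and both their lowest.

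TREM2 is a surface receptor that binds lipids and lipoproteins and signals through the adaptor TYROBP. LOW RFI cows ran from 1.57 through a median of 75.1 to 201.6 RPKM and HIGH RFI cows from 1.69 through 100.1 to 176.5 RPKM. The range of the HIGH RFI cows lay wholly within that of the LOW RFI cows, with means of 97.6 ± 47.8 (SD, n = 17) and 85.3 ± 57.0 RPKM (SD, n = 22). FABP4, the fatty acid carrier of the cytoplasm of adipocytes and macrophages, ran from 6.59 through 182.9 to 2488 RPKM in LOW RFI cows and from 10.9 through 604.5 to 1812 RPKM in HIGH RFI cows. The medians of FABP4 stood further apart than those of TREM2, yet the single highest FABP4 value was in LOW RFI cow 19. The means of FABP4 were 413.5 ± 563.8 and 631.9 ± 545.0 RPKM (SD, n = 22 and 17).

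ABCA1 and ABCG1 are the membrane pumps that pass cholesterol to apolipoprotein A-I and to high-density lipoprotein. ABCA1 ran from 0.0809 RPKM in LOW RFI cow 20 through a median of 1.55 to 12.1 RPKM in cow 13. In HIGH RFI cows it ran from 0.0743 in cow 17 through 5.11 to 24.8 RPKM in cow 11, a library that stands apart. Although the ranges overlapped, 17 of 22 LOW RFI cows lay under the HIGH RFI median of ABCA1. The means were 3.00 ± 3.17 and 7.46 ± 7.11 RPKM (SD, n = 22 and 17). ABCG1 ran from 0.0607 in LOW RFI cow 18 through 0.672 to 3.64 RPKM, against 0.0638 through 1.35 to 5.84 RPKM in HIGH RFI cows. For ABCG1, 18 of 22 LOW RFI cows lay under the HIGH RFI median, and the means were 0.948 ± 0.875 and 1.93 ± 1.81 RPKM (SD, n = 22 and 17). The same count was 16 of 22 for FABP4, 16 for GPNMB, 15 for TREM2 and 14 for LIPA. It was not taken over all features, of which 73.0% of those tested had a lower mean log2 value in LOW RFI cows. Counting precision differed widely: recovered reads over the cows ran from 2605 to 1928379 for APOE, from 34 to 15032 for ABCA1 and from 12 to 1541 for ABCG1.

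**Figure D1:**
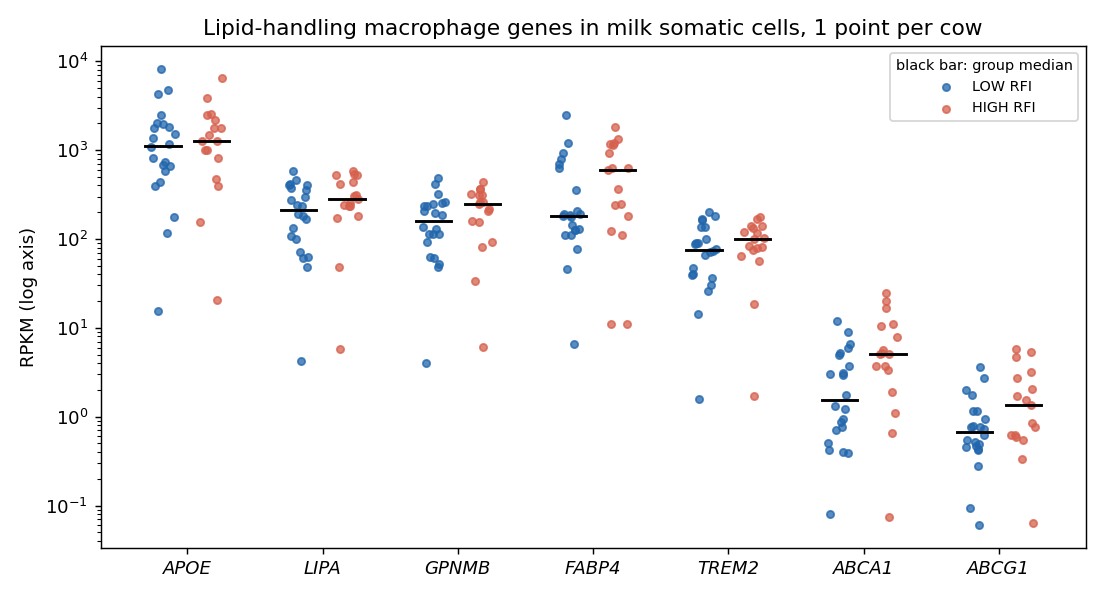
RPKM of each of the 7 genes (log axis) in every cow of the 2 groups, 1 point per cow, black bars at group medians. The groups overlap in all 7 genes, APOE spans 15.5 to 8241 RPKM, and ABCA1 and ABCG1 lie lowest.

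The design asks which genes differ between cows at the extremes of feed efficiency. Of 10652 features with at least 1 RPKM in at least 17 cows, limma on log2(RPKM + 1) called 0 (0.00%) at an adjusted p under 0.05, the smallest adjusted p being 0.769. At an unadjusted p under 0.05 there were 634 features (5.95%), of which 588 (5.52% of all tested) were lower in LOW RFI cows, and limma-voom on recovered reads called 0 with 253 at that unadjusted p. Of the 7 genes, 6 passed the filter and ABCG1, at 1 RPKM in only 15 cows, did not.

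ABCA1 was the member furthest from 0, and 1 of 6 members was under the unadjusted p of 0.05 against 5.95% of all features. Its difference, LOW RFI minus HIGH RFI, was -0.97 (SE 0.36, unadjusted p = 0.00902, limma adjusted p = 0.769), which does not pass the threshold. Without the cow with the highest value the difference was -0.84 (limma, unadjusted p = 0.0205), and without the 4 libraries that stand apart it was -0.87 (SE 0.33, limma unadjusted p = 0.0131). On the voom scale, which does not add 1 RPKM to low values, the difference was -1.33. ABCG1, fitted among all 19616 features with a value above 0, differed by -0.46 (SE 0.21, unadjusted p = 0.0355, limma adjusted p = 0.744). In that fit 6.50% of features had an unadjusted p under 0.05. Without its highest cow ABCG1 differed by -0.37 (limma, unadjusted p = 0.0759).

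For the other 5 genes the difference was about as large as its standard error or smaller. FABP4 differed by -0.63 (SE 0.60), LIPA by -0.47 (SE 0.48) and GPNMB by -0.33 (SE 0.45) on the log2 scale. TREM2 differed by -0.28 (SE 0.44) and APOE by -0.15 (SE 0.59). Their adjusted p in limma ran from 0.782 for FABP4 to 0.938 for APOE. Without the 4 libraries that stand apart FABP4, LIPA, GPNMB, TREM2 and APOE differed by -0.70, -0.53, -0.40, -0.29 and -0.16. All 6 members tested had a negative difference, where 73.0% of all features tested did, so on this scale most features share the sign. Under quantile normalization all 6 were lower beside 5021 of 10652 features. After rescaling without the milk protein genes all 6 were lower beside 5845 of 10652. As reported, the median difference of the members was -0.40, beside -0.12 over all features tested. The 14 neutrophil markers had a median difference of -0.87 and the 17 macrophage markers one of -0.44, while the 8 milk protein genes had one of 0.98. With the macrophage score in the model ABCA1 differed by -0.62 (SE 0.21, limma unadjusted p = 0.00465), and with epithelium and neutrophil scores by -0.49 (limma, unadjusted p = 0.0794). With the macrophage score in the model the differences of APOE, GPNMB, LIPA and TREM2 were 0.48, 0.14, 0.06 and 0.23 on the log2 scale. The part of cell makeup in these differences was not otherwise tested.

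Within tags the differences were uneven. In the 17 cows of 2019, FABP4 differed by -1.66, LIPA by -1.03, GPNMB by -1.02, APOE by -0.86, TREM2 by -0.64 and ABCA1 by -1.06 on the log2 scale, with adjusted p of 0.486 in limma. In the 22 cows of 2020 the same genes differed by -0.27, -0.66, -0.41, -0.50, -0.52 and -0.96. ABCG1 differed by -0.22 in 2019 and by -0.69 in 2020. In medians, FABP4 stood at 176.0 RPKM in LOW and 748.0 in HIGH RFI cows of 2019, and at 193.0 and 604.0 in those of 2020. ABCA1 stood at 1.33 and 4.43 RPKM in 2019 and at 3.04 and 5.11 in 2020. Whether the years differ was not tested, and the 2019 HIGH RFI cows number 4. In the limma fit with the month as a factor ABCA1 differed by -0.48 (SE 0.45, unadjusted p = 0.294), FABP4 by -0.03 (SE 0.80) and ABCG1 by -0.04 (SE 0.25, unadjusted p = 0.863). Only 5 of 9 months hold both groups, and all 6 cows of February 2020 were HIGH RFI, so that month and group cannot be told apart there.

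Of those months, 3 had at least 2 cows of each group. In September 2019, with 4 LOW and 2 HIGH RFI cows, all 7 genes were lower in LOW RFI cows, from -0.39 for TREM2 to -1.94 for ABCA1 on the log2 scale. The exact permutation p was 0.267 for ABCA1 and the smallest the month allows is 0.0667. In June 2020, with 6 LOW and 3 HIGH RFI cows, FABP4 differed by 1.69 and APOE by 1.36 (exact permutation p = 0.429 and 0.571) while ABCA1 differed by -0.27 (exact permutation p = 0.762). June holds the libraries LOW RFI 20 and HIGH RFI 17. In January 2020, with 2 cows of each group, ABCA1 differed by 0.51 (exact permutation p = 0.667, the smallest possible being 0.333). Over the 3 months and 7 genes the smallest exact permutation p was 0.133, and June alone could give one under 0.05.

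**Figure D2:**
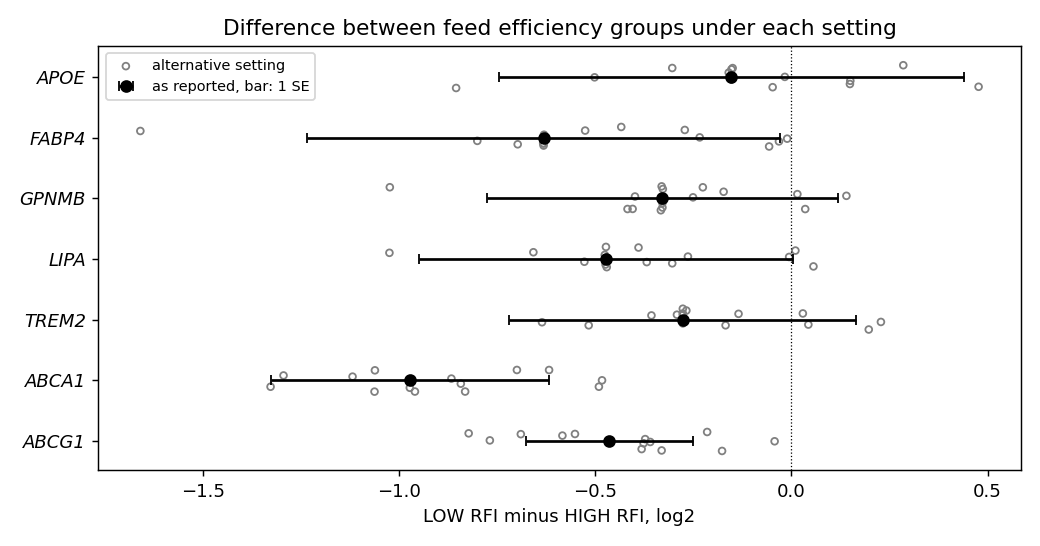
Difference between LOW and HIGH RFI cows in log2 units for each gene, as reported (filled, bar 1 SE) and under each alternative setting (open). The values of ABCA1 run from -1.33 to -0.48 and stay under 0, whereas those of APOE run from -0.86 to 0.48.

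Over the 39 cows, 5 of the 7 genes varied together closely. All pair relations use log2(RPKM + 1), and p-values come from permutation tests adjusted over the 21 pairs, the smallest p they can give being 1e-05. GPNMB and LIPA were the closest pair, with Pearson's r of 0.974 and Spearman's rho of 0.932 (permutation p = 1e-05, adjusted 1.75e-05). The r was 0.938 without the 2 cows farthest from the median, 0.933 in the 2019 tags and 0.980 in the 2020 tags. LIPA and TREM2 followed with r of 0.949 and rho of 0.849, then APOE and TREM2 with r of 0.937 and rho of 0.836, both with a permutation p of 1e-05. Without the 2 farthest cows these r were 0.875 and 0.875. FABP4 was a looser member, with r between 0.823 and 0.854 to APOE, GPNMB, LIPA and TREM2 over all cows (permutation p = 1e-05 for each) and between 0.721 and 0.789 without the 2 farthest. In the 2019 tags its r with APOE was 0.471 (permutation, adjusted p = 0.0744).

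ABCA1 went with the others less tightly, with r from 0.563 for FABP4 to 0.686 for LIPA (permutation, adjusted p = 0.000266 and 1.75e-05). Its r was also taken within the groups. With LIPA it was 0.806 in LOW RFI cows, 0.879 without the 2 farthest, but 0.572 in HIGH RFI cows and -0.089 without the 2 farthest, so that in the HIGH RFI group it rests on those cows. The same held with APOE, whose r with ABCA1 was 0.818 and 0.859 in LOW RFI cows and 0.529 and -0.042 in HIGH RFI cows. Whether the groups differ in this was not tested. For ABCG1 the pair with ABCA1 was the one that passed, where r was 0.525 and rho 0.432 (permutation p = 0.00061, adjusted 0.000801). Without the 2 farthest cows that r was 0.373. The pair did not pass without the 4 libraries that stand apart (r 0.334, permutation, adjusted p = 0.0636), in the 2019 tags (r 0.467, adjusted p = 0.0744) or within LOW RFI cows (r 0.322, adjusted p = 0.159). Within LOW RFI cows FABP4 and ABCG1 passed instead, with r of 0.489 (permutation, adjusted p = 0.0311). With APOE, ABCG1 had r of 0.152 and rho of -0.011 (permutation p = 0.356 for r), and with LIPA r of 0.301 and rho of 0.168 (permutation p = 0.0586, adjusted 0.0724). In all, 16 of 21 pairs passed the adjusted threshold of 0.05, and each of the 5 that did not includes ABCG1. The count is not particular to these genes, since most features varied together over these cows: the median rho with all 10646 other features tested was 0.543 for APOE, 0.478 for FABP4, 0.580 for GPNMB, 0.594 for LIPA, 0.556 for TREM2, 0.499 for ABCA1 and 0.215 for ABCG1.

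**Figure D3:**
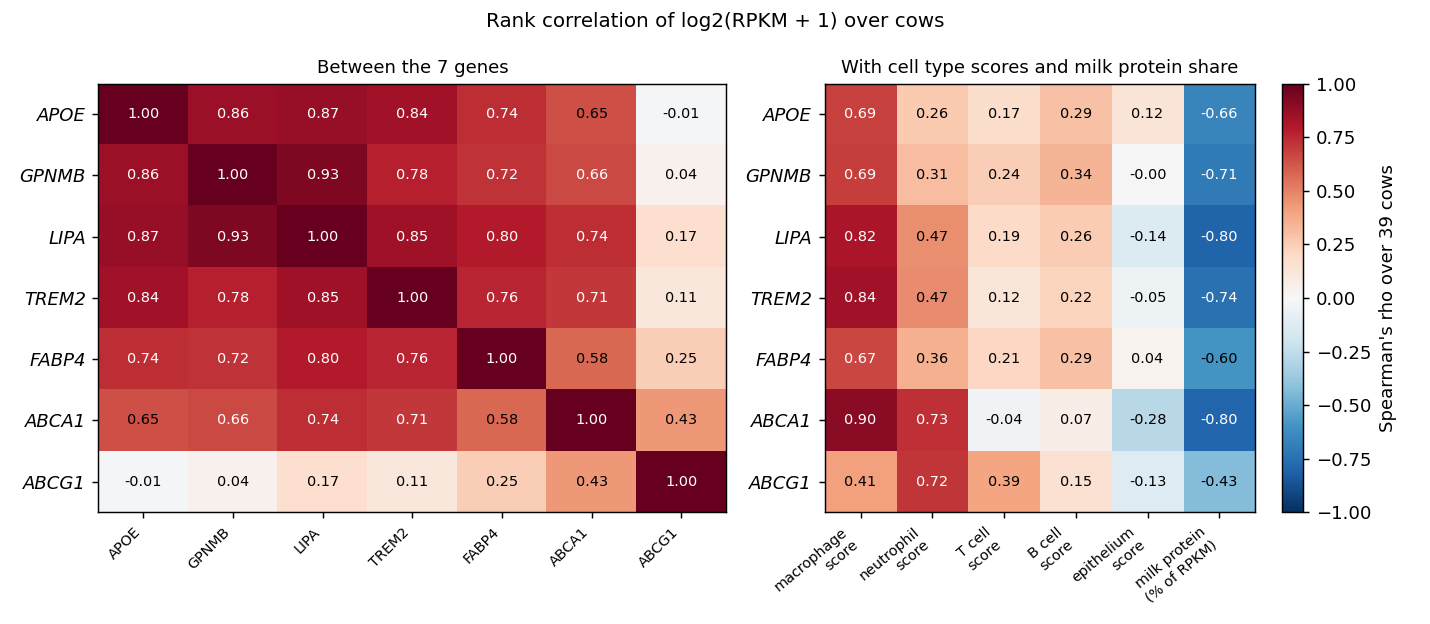
Spearman's rho over 39 cows, on log2(RPKM + 1), between the 7 genes (left) and with cell type scores and milk protein share (right). Between the genes, the block of APOE, FABP4, GPNMB, LIPA and TREM2 lies at 0.724 or more. ABCA1 lies between 0.432 and 0.738, and ABCG1 lowest.

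The genes also differed in how they tracked the cell markers, in 42 relations adjusted together. Of the 7, ABCA1 had the highest rank correlation with the macrophage score, with rho of 0.903 and r of 0.823 (permutation p = 1e-05 for each, adjusted 3.5e-05 and 3e-05). TREM2 had rho of 0.842 and r of 0.941, and LIPA rho of 0.818 and r of 0.921, all with a permutation p of 1e-05. APOE, FABP4 and GPNMB had rho of 0.686, 0.668 and 0.692 (permutation p = 1e-05 for each). The rho of ABCA1 was 0.924 in the 2019 tags and 0.858 in the 2020 tags, and that of TREM2 was 0.838 and 0.852. A line on the macrophage score took 88.6% of the variance of TREM2, 84.8% of LIPA and 62.9% of FABP4, but 20.0% of ABCG1. These shares describe the cows, since the score and the members come from the same libraries. Over all cows r with the macrophage score was 0.793 for FABP4 and 0.447 for ABCG1. Without the 2 cows farthest from each gene's median, TREM2, LIPA, FABP4 and ABCG1 had r of 0.902, 0.855, 0.675 and 0.445.

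ABCG1 varied with the neutrophil markers. Its rho with the neutrophil score, over markers led in abundance by S100A12, CXCR1 and TREM1, was 0.716 and its r 0.780 (permutation p = 1e-05, adjusted 3.5e-05 and 3e-05), against rho of 0.407 with the macrophage score (adjusted permutation p = 0.0256). The latter did not pass under quantile normalization (rho 0.235, adjusted permutation p = 0.263) or after rescaling without milk protein genes (rho 0.299, adjusted permutation p = 0.128), where rho with the neutrophil score was 0.715 and 0.679. Without the 2 farthest cows r with the neutrophil score was 0.755. Within tags rho with the neutrophil score was 0.368 in 2019 (adjusted permutation p = 0.296) and 0.868 in 2020 (adjusted permutation p = 0.00021). ABCA1 followed both scores, with rho of 0.732 and r of 0.723 to the neutrophil score (permutation p = 1e-05). APOE had rho of 0.261 to it (permutation p = 0.107, adjusted 0.173) and r of 0.416 (adjusted permutation p = 0.0141). Without the 2 farthest cows that r was 0.112. TREM2 and LIPA had rho of 0.473 and 0.465 (adjusted permutation p = 0.00792 and 0.00822). Neither passed under quantile normalization (adjusted permutation p = 0.293 and 0.397). FABP4 and GPNMB had rho of 0.358 and 0.312 (adjusted permutation p = 0.0543 and 0.104). By r, every member had an adjusted permutation p under 0.05 with the neutrophil score over all cows. With the share of RPKM in milk protein genes all 7 had negative rho, from -0.430 for ABCG1 to -0.797 for LIPA. RPKM is a share of each library, so these values are not independent of that share. With the epithelium score rho lay between -0.277 for ABCA1 and 0.125 for APOE, and no adjusted permutation p was under 0.05. That depended on the scaling: under quantile normalization rho was -0.620 for ABCA1, -0.425 for LIPA and -0.383 for ABCG1 (adjusted permutation p = 0.000187, 0.0204 and 0.0399). After rescaling without the milk protein genes it was -0.498 for ABCA1 and -0.395 for LIPA (adjusted permutation p = 0.00445 and 0.035).

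**Figure D4:**
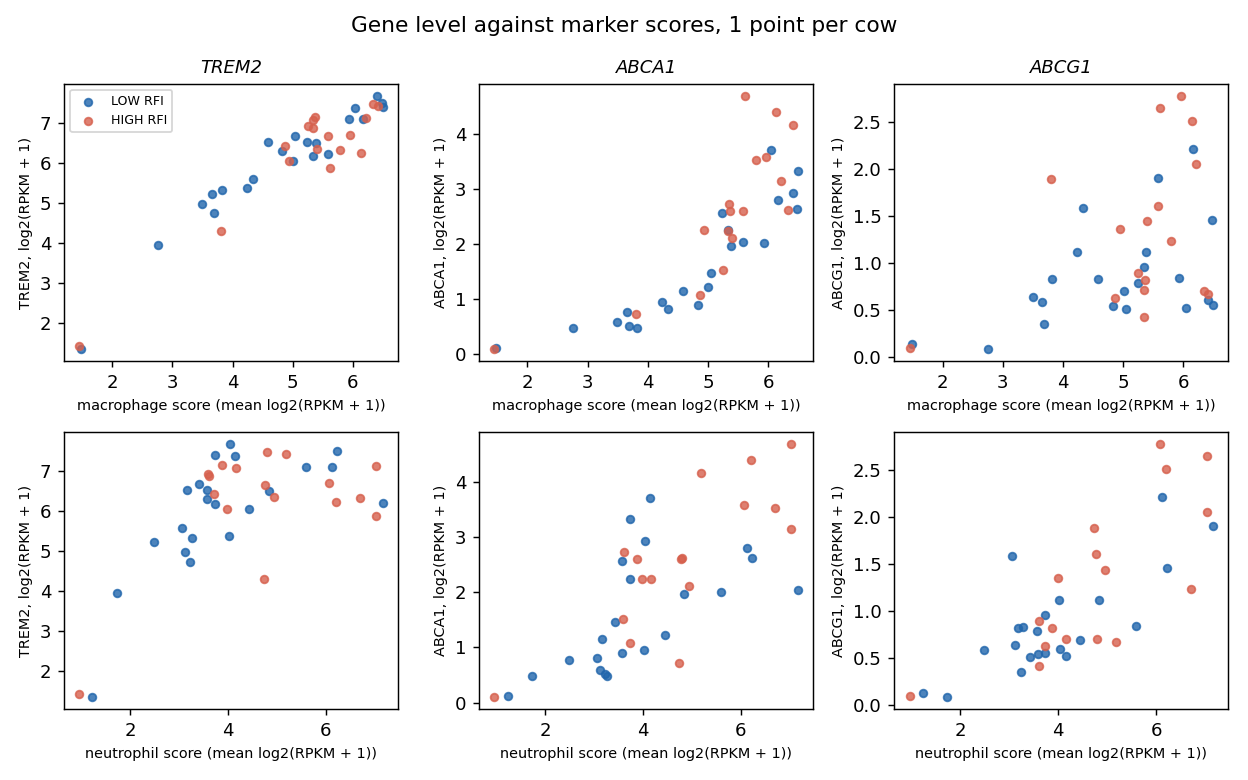
Levels of TREM2, ABCA1 and ABCG1 in each cow (log2(RPKM + 1)) against marker scores of the same library, 1 point per cow, coloured by RFI group. ABCA1 rises with the macrophage score (rho 0.903), and ABCG1 with the neutrophil score (rho 0.716).

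FABP4 is also an adipocyte and endothelial gene, so the defining markers of those cells are given beside it. Among 8 adipocyte markers ADIPOQ was at 0 in 31 cows and no higher than 0.037 RPKM, LEP was at 0 in 35, and PLIN1 reached 0.678 RPKM. Of 9 endothelial markers CDH5 reached 0.241 RPKM and KDR 0.277, while the 2 that passed the filter, VWF and PECAM1, had medians of 15.3 and 1.13 RPKM and highest values of 62.9 and 6.75. The 2 adipocyte markers that passed were GPD1, with a median of 19.6 and a highest value of 97.3 RPKM, and LIPE, with a median of 2.24 RPKM. The part of these cells in FABP4 was not tested.

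To see which other genes moved like each member, tested features with a symbol were ranked by Spearman's rho over the 39 cows. The values describe these libraries and carry no test. Both genes of a pair come from the same libraries, which differ in depth and cell makeup. FABP4 was most like CCNB1, CCNB2 and UBE2C, genes that drive cell division, with rho of 0.913, 0.911 and 0.897, where the median over all features was 0.478 and 60 of 10646 exceeded 0.8. After a line on the macrophage score was taken from both genes these were 0.75, 0.761 and 0.772, and without the 4 libraries 0.883, 0.886 and 0.868. CCNB1 was low, with a median of 4.55 RPKM and a highest value of 23.0.

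LIPA was most like SCARB2, a lysosomal membrane protein, with rho of 0.959, and 0.878 after the macrophage score. TMEM254 and REEP5 came next at 0.957 and 0.955. The 99th percentile of rho with LIPA over all features was 0.905. A rho above 0.8 was common for LIPA, with 1507 of 10646 features. It was also common for TREM2 with 1419, GPNMB with 825, APOE with 723 and ABCA1 with 450. GPNMB was most like NCAPG2, LRRC66 and BLNK, at 0.940, 0.937 and 0.936, and BLNK, an adaptor of B cell and macrophage receptors, kept 0.868 after the macrophage score. TREM2 was most like IFT27, STARD5 and the glycolytic enzyme TPI1, at 0.966, 0.958 and 0.957. APOE was most like ALOX5, the enzyme that starts leukotriene synthesis, at 0.926, ahead of DPAGT1 at 0.918 and RRBP1 at 0.917. Under quantile normalization the rho of DPAGT1 was 0.428.

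The efflux pumps had other neighbours. ABCA1 was most like CD164, RNF13 and WDFY3, at 0.929, 0.929 and 0.928. ABCG1 was most like TNFAIP3, the feedback inhibitor of NF-kB signalling, at 0.873, and PDE4B, a cyclic AMP phosphodiesterase of leukocytes, at 0.863, followed by RASGEF1B at 0.857. After the macrophage score these were 0.835, 0.810 and 0.811. The median rho over all features was 0.215 for ABCG1, and 42 features exceeded 0.8.

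**Figure D5:**
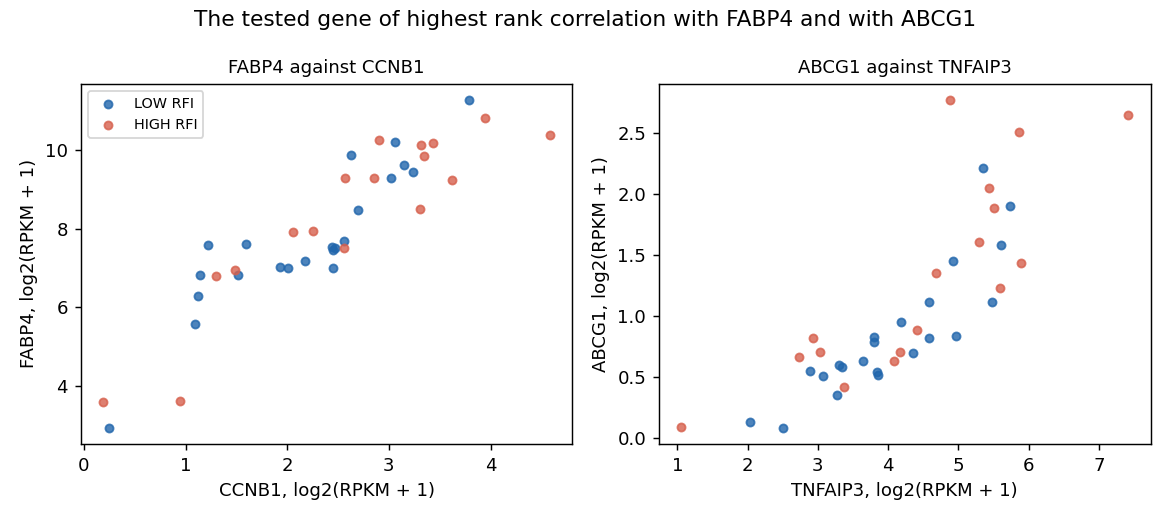
Levels (log2(RPKM + 1)) of FABP4 against CCNB1 and of ABCG1 against TNFAIP3, the tested gene ranked most like each, 1 point per cow coloured by RFI group. FABP4 lies along CCNB1 (rho 0.913) and ABCG1 along TNFAIP3 (rho 0.873).

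The rest of the pathway was read from lists of genes, none of which holds a member. Of all 5 pathway lists, no gene was called by limma at an adjusted p under 0.05. Under the unadjusted p of 0.05 were 1 of 12 lipid uptake receptors, OLR1, and 1 of 15 sterol ester and lipid droplet genes, NCEH1. Both were named after their values were seen. The count was 0 of 22 lysosomal, 0 of 19 TREM2 and 0 of 12 LXR genes, where 5.95% of all features reached it. Among lysosomal lipid breakdown genes 22 of 22 tested were lower in LOW RFI cows, with a median difference of -0.36, where 73.0% of all features tested were lower. The latter share depends on the scaling, with 5021 of 10652 features lower under quantile normalization against 7780 as reported. The most abundant genes of this list, the protease CTSD, the saposin precursor PSAP and LAMP1, differed by -0.37, -0.40 and -0.34. Of genes that signal with TREM2 or mark lipid-laden macrophages, 18 of 19 were lower, with a median of -0.40. SPP1, which encodes osteopontin, CTSB and LGALS3 differed by -0.53, -0.44 and -0.22.

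Of lipid uptake receptors 10 of 12 were lower, with a median of -0.38. The most abundant were CD36 at -0.41, CXCL16 at -0.25 and LRP1 at -0.50, and OLR1, a receptor for oxidised lipoprotein, differed by -0.92 (SE 0.35, limma unadjusted p = 0.0112). Of LXR receptors and targets 9 of 12 were lower, with a median of -0.26. The desaturase SCD, also a milk fat gene of the mammary epithelium, differed by 0.69, LPL by -0.19 and the receptor NR1H2 by -0.05. Among sterol ester and lipid droplet genes 10 of 15 were lower, with a median of -0.11, so that these last lists lay near the 73.0% of all features, and FABP3, PLIN2 and FABP5 differed by 0.71, 0.11 and -0.30. The lysosomal, TREM2 and uptake lists lay between the -0.44 of the macrophage markers and the -0.12 of all features. They are not all separate from those markers, since TYROBP, SPI1 and CD68 are also in the TREM2 list and MSR1 and MERTK in the uptake list.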

How the data were processed

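The deposited table holds RPKM per feature for 39 libraries, each normalized by the authors to gene length and mapped reads, per the file headers. The submitters' processing notes name the genome build ARS-UCD1.2. Strand use, aligner and counter: not given in the sources used here, so reads of overlapping or near-identical genes cannot be told apart. Rows were used as deposited. Whole reads were recovered from the steps of the values, within 0.02 reads for 19616 of 19616 features, giving totals of 41637742 to 204905052 per library. Names were compared with a reference table of another assembly (17331 symbols and 66 synonyms matched).

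Groups were compared with limma 3.58.1 in R 4.3.3 (trend, robust) on log2(RPKM + 1), two-sided, Benjamini-Hochberg adjusted over 10652 features with at least 1 RPKM in at least 17 cows. A difference on this scale understates change of low genes. Each cow is 1 replicate. Scores are mean log2(RPKM + 1) of listed markers. Correlations used 1e+05 permutations (Python 3.11.15, numpy 2.4.6, scipy 1.17.1), two-sided. Named genes are the members, the 3 features most like each member, and of the lists the 3 most abundant tested genes, given for the pathway, macrophage and neutrophil lists. Adipocyte and endothelial markers, MARCO, SIGLEC1, OLR1 and NCEH1 were named after their values were seen. Members and lists were chosen with earlier results of these data known. Settings tried were other pseudocounts, filters, scalings, covariates, month, libraries left out and limma-voom. ABCG1, below the filter, was fitted among all detected features.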

Additional observations from a re-analysis of the deposited data

How the results depend on the processing

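Of the settings tried, all gave 0 features past the adjusted threshold, with 9 (month as a factor) to 1276 (no filter) at an unadjusted p under 0.05. FABP4, ABCA1 and ABCG1 had a negative difference in every setting run on them (15, 14 and 13). But FABP4 moved from -0.632 to -0.057 with the macrophage score, -0.032 with month and -0.011 without the 8 libraries described below. ABCG1 moved from -0.464 to -0.043 with month. With the macrophage score as covariate the differences of APOE, GPNMB, LIPA and TREM2 turned positive, at 0.477, 0.140, 0.056 and 0.228. With epithelium and neutrophil scores as covariates these were 0.285, 0.015, 0.010 and 0.197. With month as a factor APOE was 0.150 and TREM2 0.043. Without 8 libraries whose column names carry a mark, a setting chosen after seeing the data, APOE was 0.149, GPNMB 0.035 and TREM2 0.029. Of the 8, 7 are LOW RFI and 1 is HIGH RFI, so mark and group are confounded. Members lower in LOW RFI cows thus numbered 2, 2 and 3 with the first, second and last of these, against 6. Over all 10652 features tested, those lower numbered 4416, 4711 and 5846 in the same settings, against 7780, so the count fell over the whole table too. Of pairs with ABCG1, r turned negative within HIGH RFI cows for FABP4 (-0.096), without the 4 libraries for APOE (-0.175), FABP4 (-0.009), GPNMB (-0.114) and TREM2 (-0.054), and under quantile normalization for APOE (-0.107), FABP4 (-0.102), GPNMB (-0.182), LIPA (-0.013) and TREM2 (-0.018). Of features at an unadjusted p under 0.05, 588 of 634 were lower in LOW RFI cows, 438 of 888 after quantile normalization and 343 of 548 after rescaling without milk protein genes, which moved the median difference of all features from -0.115 to 0.016 and -0.028. The causes were not tested. No paired analysis was possible because each library is a different cow and the labels pair none of them. Depth limits ABCG1 most, with 12 reads in its lowest cow.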
